A study of Mus musculus with 18 samples.

Results

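The ovulatory genes are 10 genes that luteinizing hormone (LH) is known to switch on in the preovulatory follicle, chosen by name from the 57010 genes of the count tables: Areg, Ereg, Btc, Ptgs2, Has2, Tnfaip6, Ptx3, Adamts1, Runx1 and Edn2. All 10 were found in both tables, and all 10 had counts in every ovary library. They were followed in bulk RNA sequencing of 18 libraries, 3 for each of 3 genotypes in the ovary and the uterus of C57B6/J mice of 20 to 25 weeks. The genotypes are ARE-/- (homozygous), ARE+/- (heterozygous) and WT (wild type). As background, ARE stands for the AU-rich element of Ifng, the gene of interferon gamma, a sequence that speeds decay of its messenger RNA; the labels name the genotypes without defining the allele or saying how it was made. The ovary libraries are ARE-/- replicates 2, 3 and 6, ARE+/- replicates 1, 2 and 4 and WT replicates 1, 2 and 3, and the uterus libraries are replicates 1, 2 and 3 of each genotype. Titles mark ovary ARE-/- replicate 6 and uterus WT replicate 1 as backup samples. The design text gives 3 mice per genotype, so replicates of a group were taken as separate animals. Which ovary and uterus share a mouse is not stated, nor is any hormone treatment or estrous stage. The title of the series links a pituitary inflammation driven by interferon gamma to poor luteinization, and the pituitary is the source of LH. The question followed here is therefore how the LH-induced genes of the follicle stood in ovaries of the 3 genotypes, with the uterus as the other tissue.

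In the ovary, the LH surge acts on receptors of mural granulosa cells, which then release the epidermal growth factor (EGF)-like ligands amphiregulin, epiregulin and betacellulin. These ligands act on EGF receptors of granulosa and cumulus cells, where prostaglandin synthesis starts and a hyaluronan matrix is laid down around the oocyte. Transcription factors take part in this response, and proteases and the vasoconstrictor endothelin 2 act later, at rupture of the follicle. Each of these transcripts peaks for a few hours after the surge, so unstimulated ovaries taken at mixed cycle stages are known to hold little of most of them.

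Positions are those of the GENCODE M32 annotation in the files, where the genes of the 3 ligands are neighbours. Ereg (ENSMUSG00000029377.6, chromosome 5, 91222481 to 91241505, plus strand) ends 46 kb before Areg (ENSMUSG00000029378.6, chromosome 5, 91287458 to 91296291, plus strand). Btc (ENSMUSG00000082361.7, chromosome 5, 91505120 to 91550853, minus strand) starts a further 209 kb on, and the 3 genes span 328 kb. Ptgs2 (ENSMUSG00000032487.9) is on chromosome 1 at 149975782 to 149983978, plus strand. Has2 (ENSMUSG00000022367.8) is on chromosome 15 at 56529023 to 56557935, minus strand. Tnfaip6 (ENSMUSG00000053475.6) is on chromosome 2 at 51928021 to 51946698, plus strand, and Ptx3 (ENSMUSG00000027832.6) on chromosome 3 at 66127331 to 66133226, plus strand. Adamts1 (ENSMUSG00000022893.15, 85590715 to 85600001) and Runx1 (ENSMUSG00000022952.18, 92398354 to 92623037) are both on the minus strand of chromosome 16. Edn2 (ENSMUSG00000028635.8) is on chromosome 4 at 120018403 to 120024557, plus strand.

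Promoter letters are shown for 4 of these genes, since LH signals through cyclic AMP and the CRE core, the C/EBP letters and the RUNX letters are the motifs by which follicular promoters are known to answer it. RefSeq windows of build GRCm38.p6, from 250 bases before to 50 after the gene start, were at hand for 8 of the 10 genes (9 windows, since Runx1 has 2 starts); Ereg and Has2 were not matched. Capitals mark 4 motifs on either strand. The CRE core, bound by the cyclic AMP response factor CREB, was searched as TGACG. Sites of the C/EBP factors, which ovulation in mice needs, were searched as TTNNGNAA. The core motif of RUNX factors was searched as TGTGGT. The TATA box, which places the start of transcription, was searched as TATAAA. The windows are Areg chr5:91139349-91139648 (plus strand), Ptgs2 chr1:150099781-150100080 (plus), Adamts1 chr16:85803064-85803363 (minus) and Edn2 chr4:120160956-120161255 (plus), in a build other than that of the gene positions above.
Areg: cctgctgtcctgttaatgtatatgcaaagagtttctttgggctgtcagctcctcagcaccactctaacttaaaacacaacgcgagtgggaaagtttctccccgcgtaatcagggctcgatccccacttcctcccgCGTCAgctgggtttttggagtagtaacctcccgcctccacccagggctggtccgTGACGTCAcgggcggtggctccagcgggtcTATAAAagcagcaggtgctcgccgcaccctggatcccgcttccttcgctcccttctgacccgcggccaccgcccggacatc
Ptgs2: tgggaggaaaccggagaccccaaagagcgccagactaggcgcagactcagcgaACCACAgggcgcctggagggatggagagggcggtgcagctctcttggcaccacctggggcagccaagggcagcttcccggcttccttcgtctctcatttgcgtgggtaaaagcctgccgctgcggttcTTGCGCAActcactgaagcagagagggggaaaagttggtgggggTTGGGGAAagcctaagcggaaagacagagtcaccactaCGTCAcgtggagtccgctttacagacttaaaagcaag
Adamts1: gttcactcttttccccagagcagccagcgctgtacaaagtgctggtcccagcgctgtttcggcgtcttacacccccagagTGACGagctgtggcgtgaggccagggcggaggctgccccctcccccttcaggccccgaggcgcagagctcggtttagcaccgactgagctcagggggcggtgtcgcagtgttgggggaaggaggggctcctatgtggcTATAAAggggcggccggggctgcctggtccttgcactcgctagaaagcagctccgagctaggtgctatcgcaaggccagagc
Edn2: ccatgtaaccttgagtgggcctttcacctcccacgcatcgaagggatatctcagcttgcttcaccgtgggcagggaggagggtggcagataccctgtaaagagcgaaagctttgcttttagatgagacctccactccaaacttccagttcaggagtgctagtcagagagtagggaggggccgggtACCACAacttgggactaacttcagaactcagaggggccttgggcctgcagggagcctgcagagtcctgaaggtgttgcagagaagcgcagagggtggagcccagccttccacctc

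Areg held 3 matches of the CRE core, starting 115, 61 and 58 bases before the gene start, of which the last 2 overlap in the full palindrome, and a TATA box at 31 bases before it. Ptgs2 held C/EBP matches at 69 and 25 bases before the start, a RUNX match at 197 bases before it and a CRE core 14 bases past it. Adamts1 held a CRE core at 170 and a TATA box at 32 bases before the start. Edn2 held none of the CRE or C/EBP letters and a RUNX match at 65 bases before the start. Over the 9 windows, the CRE core was found in 4, against 20.8% of all 32851 promoter windows of the table, C/EBP in 3, against 40.7%, RUNX in 3, against 16.8%, and TATA in 2, against 13.6%. The other motifs searched were CANNTG (E-box, in 6 of 9 windows and 72.3% of all), GGGCGG (Sp1, 4 and 35.7%) and TTCNNNGAA (GAS, the interferon gamma response site, 1 and 8.3%). The only GAS match was in Tnfaip6. A match describes letters in a short window and not a bound site.

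Libraries held 38132822 to 46647171 counts in the ovary and 33185496 to 49720354 in the uterus; mates were counted one by one, so a fragment usually gave 2 counts. Levels were computed as CPM with library sizes corrected by TMM factors of all 18 libraries, and errors are SD over the 3 libraries of a group. Called, higher and lower refer to an adjusted p under 0.05 in edgeR's quasi-likelihood test, adjusted over all genes of the table. Ifng followed the labels. It had 51, 38 and 50 counts in ARE-/- ovaries, 18, 10 and 28 in ARE+/- ovaries and 4, 0 and 4 in WT ovaries, and rose in ARE-/- ovaries (log2 fold change 4.04 ± 0.80, edgeR adjusted p = 0.013; 4.42 and 0.051 without WT replicate 1). The uterus counts were 96, 130 and 56 in ARE-/-, 58, 36 and 70 in ARE+/- and 4, 6 and 0 in WT libraries. Ifng was called in ARE-/- uteri (4.93 ± 0.80, edgeR adjusted p = 0.011) and in ARE+/- uteri (4.01 ± 0.79, adjusted p = 0.047). The ARE-/- uterus call was lost without WT replicate 1 (0.067), and the ARE+/- uterus call without any of 7 libraries (0.053 to 0.21). Markers of granulosa cells, luteal cells and oocytes were present in all 9 ovary libraries, but single luteal markers varied widely. Akr1c18 ran from 0.242 to 1072 CPM and Ptgfr from 8.05 to 747 CPM over the ovaries. Uterus ARE-/- replicate 1 stood apart: it carried ovary transcripts, with a summed CPM of 29.5 over 7 oocyte genes, against 1.6 to 4.42 in the other 8 uteri, and of 347 over 8 luteal genes, against 92.6 to 121. It also had the highest sums of fat cell, red cell and smooth muscle genes of any library (5835, 7358 and 14987 CPM). Some uterus values are given with and without it.

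None of the 10 ovulatory genes was called in ARE-/- ovaries against WT ovaries. Over all 24457 genes tested 10.5% were called. The median log2 fold change of the 10 genes was 0.01, against 0.02 over all genes, with 5 genes above 0 and 5 below. At an unadjusted p under 0.05 there was 1 gene, Edn2, where 26.6% of all genes passed. DESeq2 called 1 gene, also Edn2, where it called 14.4% of all genes. The ARE-/- and WT groups overlapped for all 10 genes, while 30.5% of all genes had groups that did not overlap. Over the 9 ovaries the highest level was 20.9 times the lowest for Edn2, 7.75 times for Has2, 7.5 times for Ptgs2 and 5.41 times for Tnfaip6, and 1.7 to 2.52 times for the other 6 genes, as the plot of levels by library shows.

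**Figure D1:**
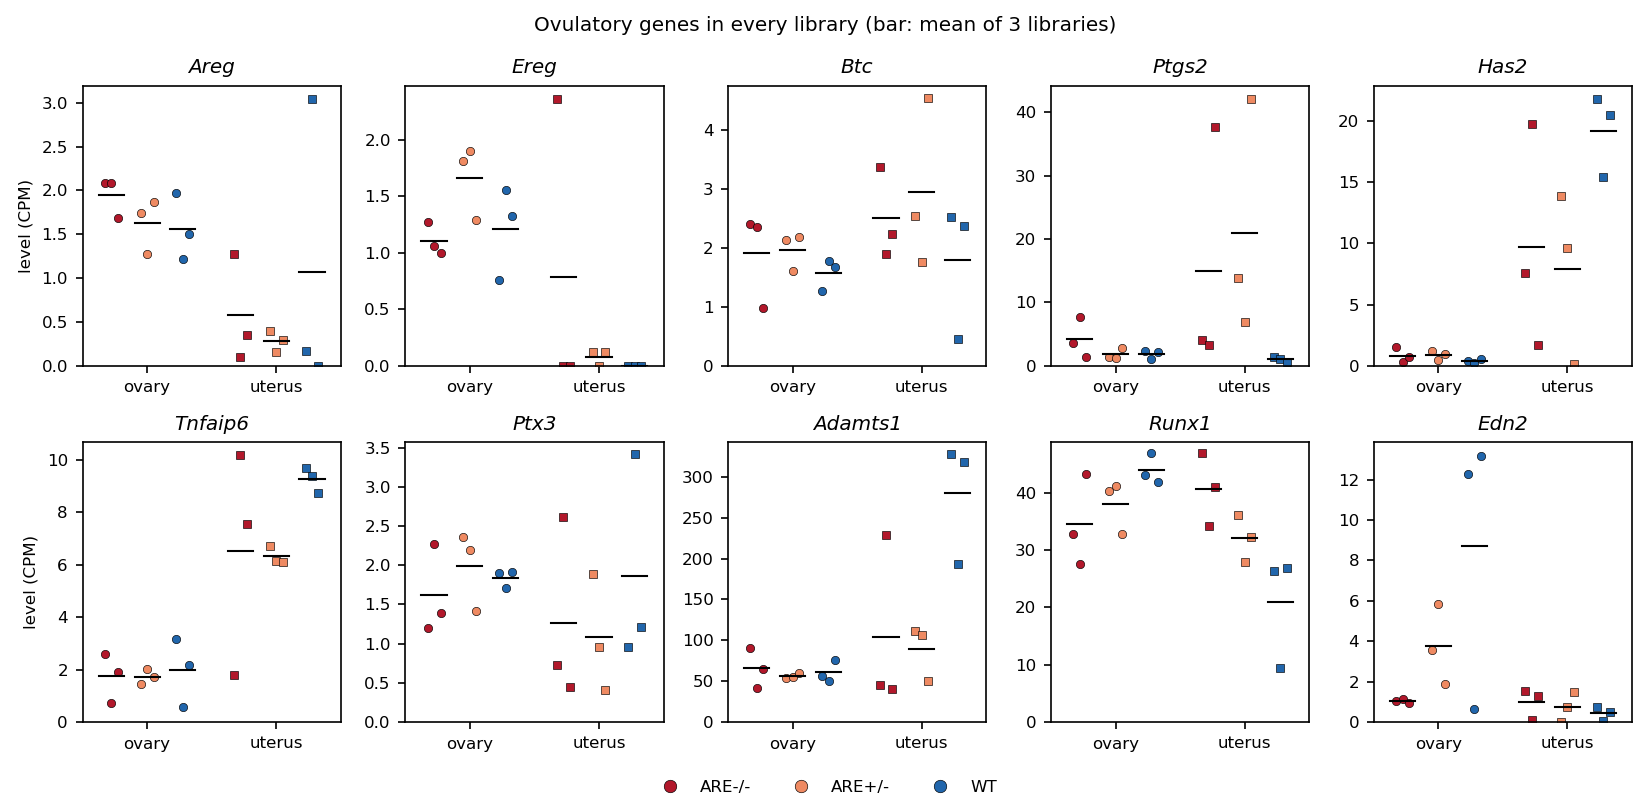
Level of each of the 10 ovulatory genes in every library, as CPM on axes that start at 0, by tissue and genotype; points are single libraries and bars the mean of 3 libraries. In the ovary Edn2 lies between 0.925 and 1.16 CPM in ARE-/- libraries and between 0.635 and 13.2 CPM in WT libraries, and in the uterus Ptgs2 lies at 3.24 CPM or more in ARE-/- and ARE+/- libraries and at 1.29 CPM or less in WT libraries.

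Areg, amphiregulin, is the first of the 3 EGF-like ligands. It was at 2.09, 2.08 and 1.69 CPM in ARE-/- ovaries 2, 3 and 6, against 1.74, 1.27 and 1.87 CPM in ARE+/- ovaries 1, 2 and 4 and 1.97, 1.22 and 1.5 CPM in WT ovaries 1, 2 and 3. All 9 values lay within a factor of 1.71, and the groups overlapped. The difference from WT was 0.33 ± 0.29 in ARE-/- (edgeR adjusted p = 0.52) and 0.06 ± 0.29 in ARE+/- ovaries (adjusted p = 0.95).

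Ereg, epiregulin, was at 1.27, 1.06 and 0.994 CPM in ARE-/- ovaries, against 1.81, 1.9 and 1.29 CPM in ARE+/- ovaries and 0.755, 1.56 and 1.33 CPM in WT ovaries. The 3 ARE-/- values lay just below the 3 ARE+/- values and inside the range of WT. Differences from WT were -0.11 ± 0.34 in ARE-/- (adjusted p = 0.87) and 0.47 ± 0.34 in ARE+/- ovaries (adjusted p = 0.57). Ereg shares 141 exon bases (3.4% of its exon length) with Gm19610 on the opposite strand. Counting used no strand and kept multi-overlapping reads, so reads there can count for both genes and cannot be assigned to one of them. Gm19610 had 255 counts in the 9 ovaries, against 509 for Ereg.

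Btc, betacellulin, was at 2.4, 2.35 and 0.971 CPM in ARE-/- ovaries, against 2.13, 1.6 and 2.18 CPM in ARE+/- ovaries and 1.27, 1.78 and 1.67 CPM in WT ovaries. ARE-/- replicate 6 held the lowest value of the 9 and ARE-/- replicates 2 and 3 the highest. No difference from WT was called (0.29 ± 0.36, adjusted p = 0.67, in ARE-/-; 0.34 ± 0.36, adjusted p = 0.72, in ARE+/-). The 3 neighbouring ligand genes thus had ovary means between 1.11 and 1.97 CPM in every genotype.

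Ptgs2, cyclooxygenase 2, makes the prostaglandin precursor needed for rupture of the follicle. It was at 3.56, 7.69 and 1.43 CPM in ARE-/- ovaries 2, 3 and 6, against 1.34, 1.23 and 2.76 CPM in ARE+/- ovaries and 2.34, 1.03 and 2.12 CPM in WT ovaries. ARE-/- replicates 2 and 3 were above all other ovaries and ARE-/- replicate 6 was within the WT range. The mean was 4.23 ± 3.18 CPM in ARE-/-, 1.78 ± 0.857 CPM in ARE+/- and 1.83 ± 0.705 CPM in WT ovaries (SD, n = 3 each). The difference of ARE-/- from WT, 1.22 ± 0.59, was not called (edgeR adjusted p = 0.23), nor was that from ARE+/- (1.25 ± 0.59, adjusted p = 0.61). In ARE+/- against WT it was -0.03 ± 0.59 (adjusted p = 0.99).

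Has2, hyaluronan synthase 2, builds the chain of the cumulus matrix. It was at 1.51, 0.29 and 0.671 CPM in ARE-/- ovaries, against 1.22, 0.45 and 0.946 CPM in ARE+/- ovaries and 0.414, 0.195 and 0.579 CPM in WT ovaries. WT replicate 2 held 8 counts, the fewest of the 9, and ARE-/- replicate 3 held 12. Differences from WT were 1.06 ± 0.66 in ARE-/- (adjusted p = 0.35) and 1.14 ± 0.66 in ARE+/- ovaries (adjusted p = 0.46), and neither was called. Has2 shares 182 exon bases (4.3%) with its antisense gene Has2os, which had 82 counts in the 9 ovaries, against 263 for Has2.

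Tnfaip6, whose product carries heavy chains of inter-alpha-inhibitor onto hyaluronan, was at 2.6, 0.726 and 1.9 CPM in ARE-/- ovaries, against 1.44, 2.04 and 1.7 CPM in ARE+/- ovaries and 3.17, 0.586 and 2.17 CPM in WT ovaries. The spread within ARE-/- and within WT was wider than the distance between the groups (-0.17 ± 0.59, adjusted p = 0.89). ARE+/- against WT gave -0.18 ± 0.59 (adjusted p = 0.92).

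Ptx3, pentraxin 3, cross-links that matrix. Its levels were 1.2, 2.27 and 1.39 CPM in ARE-/- ovaries, 2.36, 2.19 and 1.41 CPM in ARE+/- ovaries and 1.9, 1.71 and 1.91 CPM in WT ovaries. The WT libraries lay closest together and inside the range of both other genotypes. Differences from WT were -0.17 ± 0.32 in ARE-/- (adjusted p = 0.79) and 0.12 ± 0.32 in ARE+/- ovaries (adjusted p = 0.91).

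Adamts1, a protease that cleaves versican of the matrix, was the most abundant of the 10 genes per kilobase of exon. It was at 90.6, 42.1 and 65.4 CPM in ARE-/- ovaries, against 53.9, 54.5 and 59.5 CPM in ARE+/- ovaries and 56.2, 50.2 and 75.8 CPM in WT ovaries. ARE-/- replicate 2 was the highest and ARE-/- replicate 3 the lowest of the 9. The difference from WT was 0.13 ± 0.25 in ARE-/- (adjusted p = 0.79) and -0.11 ± 0.25 in ARE+/- ovaries (adjusted p = 0.89).

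Runx1, a transcription factor of preovulatory granulosa cells and of blood cells, was at 32.8, 27.5 and 43.2 CPM in ARE-/- ovaries, against 40.3, 41.1 and 32.7 CPM in ARE+/- ovaries and 43.1, 46.9 and 41.8 CPM in WT ovaries. The 3 ARE+/- values lay below all WT values, the only non-overlap from WT among the 10 genes in the ovary, and ARE-/- replicate 6 lay within WT. The means were 34.5 ± 7.99 CPM in ARE-/-, 38 ± 4.64 CPM in ARE+/- and 43.9 ± 2.66 CPM in WT ovaries. The ARE-/- difference of -0.33 ± 0.16 was not called (edgeR adjusted p = 0.23), and without ARE-/- replicate 6 it was -0.56 and called (adjusted p = 0.025). ARE+/- against WT gave -0.20 ± 0.16 (adjusted p = 0.62). Runx1 shares 106 exon bases (1.4%) with Gm26626 on the opposite strand, which had 658 counts in the 9 ovaries, against 14779 for Runx1.

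Edn2, endothelin 2, is made by granulosa cells around rupture and constricts the smooth muscle of the follicle wall. It was at 1.03, 1.16 and 0.925 CPM in ARE-/- ovaries 2, 3 and 6 (43, 48 and 40 counts). ARE+/- ovaries 1, 2 and 4 held 3.57, 5.85 and 1.89 CPM (144, 286 and 78 counts). WT ovaries 1, 2 and 3 held 12.3, 0.635 and 13.2 CPM (503, 26 and 549 counts). All 3 ARE-/- values were low and close together, all 3 ARE+/- values lay above them, and WT split into a pair of high libraries and 1 library below every other ovary. The ARE-/- difference from WT was -3.05 ± 0.95 (unadjusted p = 0.013, edgeR adjusted p = 0.084). It was called without WT replicate 2 (-3.62, adjusted p = 0.0023) and by DESeq2 (-3.06, adjusted p = 0.013). The other 15 of 17 alternative fits did not call it (adjusted p up to 0.44), and the 17 values ran from -3.62 to -2.51. ARE+/- against WT gave -1.20 ± 0.88 (adjusted p = 0.58) and ARE-/- against ARE+/- gave -1.85 ± 0.92 (adjusted p = 0.64).

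None of the 10 genes was called between ARE+/- and WT ovaries, where 1.71% of all genes were called. At an unadjusted p under 0.05 there were 0 of 10 (15.7% of all genes), and DESeq2 called 0 (5.76% of all). Only Runx1 had groups that did not overlap, against 26.1% of all genes. Between ARE-/- and ARE+/- ovaries 0 of 10 were called, against 0.0491% of all genes. At an unadjusted p under 0.05 there were 0 (8.39% of all), and DESeq2 called 0 of the 10 and 197 over all genes. There the groups did not overlap for Ereg and Edn2, with all ARE-/- values below all ARE+/- values, against 12.8% of all genes. The authors' deposited table of a likelihood-ratio test over the 3 genotypes gave ovary adjusted p-values of 0.0689 for Edn2 and 0.154 for Ptgs2, and 0.449 to 0.977 for the other 8 genes. That deposited table puts 12.1% of ovary genes under 0.05.

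**Figure D2:**
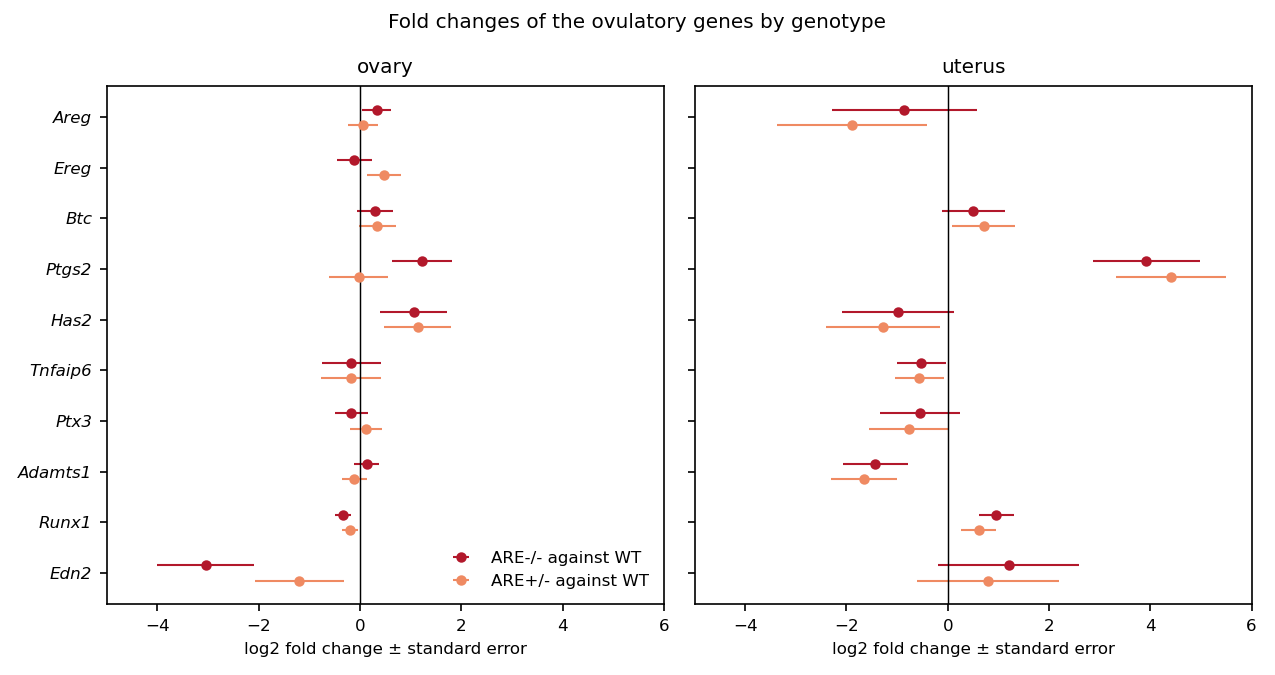
Log2 fold change of each ovulatory gene against WT, with its standard error from edgeR's quasi-likelihood fit, for ARE-/- and ARE+/- animals in the ovary and the uterus. In the ovary Edn2 stands lowest in ARE-/- (-3.05 ± 0.95), and in the uterus Ptgs2 stands highest (3.92 ± 1.06 in ARE-/- and 4.41 ± 1.08 in ARE+/-); none of the values shown was called, and Ereg was not tested in the uterus.

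Single ovaries were extreme for several genes together. WT replicate 2 was the lowest of 9 for 5 of the 10 genes (Areg, Ptgs2, Has2, Tnfaip6 and Edn2) and the highest for Runx1. ARE-/- replicate 2 was the highest for 4 (Areg, Btc, Has2 and Adamts1). Markers of other cells were summed in the same libraries. Summed granulosa markers (9 genes) were at 1323 to 2757 CPM in ARE-/-, 2219 to 3005 CPM in ARE+/- and 2793 to 3724 CPM in WT ovaries, with 0 of 9 called in ARE-/- against WT (1 lower without ARE-/- replicate 6). Summed luteal markers (8 genes) were at 3762 to 10112 CPM in ARE-/-, 4478 to 12638 CPM in ARE+/- and 9210 to 14868 CPM in WT ovaries, with 0 of 8 called in ARE-/- against WT. Of the luteal markers 3 were lower without ARE-/- replicate 6, and 1 was lower by DESeq2. The median log2 fold change in ARE-/- against WT was -1.40 over the luteal and -0.51 over the granulosa markers, against 0.02 over all genes. The luteal sum was 3849 and 3762 CPM in ARE-/- replicates 2 and 3, the ovaries with the most Ptgs2, and 10112 CPM in ARE-/- replicate 6. In WT replicate 2, the WT ovary with little Edn2, it was 14868 CPM, the highest of the 9. Oviduct markers, a tissue that can come along when an ovary is cut out, summed to 2927 to 3452 CPM in ARE-/-, 2488 to 3153 CPM in ARE+/- and 1421 to 2002 CPM in WT ovaries, with 3 of 5 higher in ARE-/-. Macrophage markers (5 of 7 higher in ARE-/-) summed to 750 to 1626 CPM in ARE-/-, 725 to 972 CPM in ARE+/- and 379 to 497 CPM in WT ovaries. T cell markers (7 of 7 higher in ARE-/-) summed to 29.4 to 69 CPM in ARE-/-, 15.3 to 24.6 CPM in ARE+/- and 5.34 to 6.28 CPM in WT ovaries. The part of these cell populations in the values of the ovulatory genes was not tested. In bulk tissue, fewer cells of a type and less RNA per cell cannot be told apart.

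The wider LH pathway was described by 7 lists around the ovulatory genes and by 1 list of interferon gamma response genes. In ARE-/- ovaries 7 of the 73 genes tested from the 7 lists were called, 3 higher and 4 lower, a share of 9.59% beside 10.5% of all genes. Prostaglandin genes gave 2 higher and 0 lower of 12 (median 0.25). Pla2g4a, the phospholipase that frees arachidonic acid, was at 45.1 ± 6.6 CPM in ARE-/- and 26.8 ± 2.61 CPM in WT ovaries (0.76 ± 0.12, adjusted p = 0.0057). Ptgs1, the constitutive cyclooxygenase, was at 21.6 ± 5.17 CPM in ARE-/- and 13.5 ± 1.24 CPM in WT ovaries (0.69 ± 0.17, adjusted p = 0.034). Proteases and inhibitors gave 1 higher and 1 lower of 11 (median 0.03): Mmp19, a metalloproteinase, rose (0.49 ± 0.13, adjusted p = 0.045), and Adamts9, of the same family as Adamts1, fell (-0.76 ± 0.19, adjusted p = 0.031). Of 6 endothelin genes 1 was lower (median -0.09), the receptor Ednrb, at 20.2 ± 3.87 CPM in ARE-/- and 34.3 ± 4.05 CPM in WT ovaries (-0.75 ± 0.15, adjusted p = 0.014). Of 14 LH receptor and transcription factor genes 1 was lower (median -0.45), Nrip1, a nuclear receptor corepressor required for ovulation in mice (-0.64 ± 0.18, adjusted p = 0.048). Of 14 EGF receptor signalling genes tested 1 was lower (median 0.09), Adam10, a sheddase of such ligands (-0.32 ± 0.08, adjusted p = 0.039). The hyaluronan matrix list had 0 of 11 tested called (median 0.18) and the progesterone receptor targets 0 of 5 (median 0.23).

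The number called depended on single ovaries. Without ARE-/- replicate 6 it was 14, with 6 higher and 8 lower (18.9% of the list genes tested, beside 12.9% of all genes). Without any 1 of the other 8 ovaries it was 2 to 5 (2.7% to 6.76%, beside 3.11% to 9.43% of all genes). Of the 7 genes, Pla2g4a alone was called in all 9 such fits. Ednrb lost its call without WT replicate 2 (adjusted p = 0.05 after rounding). Adamts9 lost it without ARE-/- replicate 2 or 3 or WT replicate 1 or 3 (adjusted p 0.072 to 0.11). Adam10 lost it without any of 6 libraries (ARE-/- 2 and 3, ARE+/- 1 and the 3 WT ovaries, 0.051 to 0.13) and Ptgs1 without any of 7 (those 6 and ARE+/- 2, 0.054 to 0.14). Nrip1 kept its call without WT replicate 2 and lost it without any of the other 8 ovaries (0.056 to 0.16), and Mmp19 kept it without ARE-/- replicate 6 and lost it without any of the other 8 (0.056 to 0.19). All 10 interferon gamma response genes rose in ARE-/- ovaries (median 3.25), among them Ciita, the class II transactivator (3.53 ± 0.18), Gbp2, a guanylate-binding protein (2.85 ± 0.15), and Cxcl9, a T cell chemokine (6.72 ± 0.36).

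In ARE+/- ovaries 1 of the 73 genes tested from the 7 lists was called, a share of 1.37% beside 1.71% of all genes. Pla2g4a was at 39.8 ± 3.15 CPM there and 26.8 ± 2.61 CPM in WT ovaries (0.58 ± 0.12, edgeR adjusted p = 0.049), a call lost without any of 7 libraries (ARE-/- 2, the 3 ARE+/- and the 3 WT ovaries, adjusted p 0.077 to 0.2). The call was also lost with another scaling (0.054), without robust dispersion (0.053) and with counts halved (0.052). The list medians ran from -0.24 for progesterone receptor targets to 0.23 for prostaglandin genes, around 0.02 over all genes. Of the 10 interferon gamma response genes 9 rose (median 2.29), among them Ciita (2.44 ± 0.17), Gbp2 (1.93 ± 0.14) and Cxcl9 (5.10 ± 0.34). The gene not called was Ifng itself (2.73 ± 0.80, edgeR adjusted p = 0.13), which DESeq2 called (2.77, adjusted p = 0.015).

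The uterus does not ovulate, and there 0 of the 9 ovulatory genes tested were called in ARE-/- against WT, where 3.75% of 24277 genes were called. Ereg had too few counts to be tested. At an unadjusted p under 0.05 there were 2 genes, Ptgs2 and Runx1 (19.9% of all genes). They were also the 2 whose groups did not overlap (22.2% of all). DESeq2 called 1, Ptgs2 (8.39% of all). The median log2 fold change of the 9 was -0.52, against 0.04 over all genes. Ptgs2 was at 3.99, 3.24 and 37.7 CPM in ARE-/- uteri 1, 2 and 3, against 13.9, 6.84 and 42.1 CPM in ARE+/- uteri and 1.29, 0.997 and 0.641 CPM in WT uteri. All 6 uteri with an altered allele lay above all 3 WT uteri, and replicate 3 of both altered genotypes was far above the rest. The differences from WT were 3.92 ± 1.06 in ARE-/- (unadjusted p = 0.0047, edgeR adjusted p = 0.081) and 4.41 ± 1.08 in ARE+/- uteri (unadjusted p = 0.0026, adjusted p = 0.097). DESeq2 called both (adjusted p = 0.0052 and 0.0019). In edgeR the ARE-/- difference was called without ARE-/- replicate 2 (4.39, adjusted p = 0.044). The ARE+/- difference was called without ARE-/- replicate 3 (4.40, 0.017) or with only these 2 groups in the fit (4.41, 0.035). The ARE-/- difference was not called in 15 of 17 alternative fits (adjusted p up to 0.3). With single libraries left out it ran from 1.88 to 4.39. The authors' deposited table gave Ptgs2 an adjusted p of 0.0219 in the uterus, where 7.55% of its genes were under 0.05. Neutrophil markers, 6 genes of a cell type that makes Ptgs2 when activated, summed to 176 to 239 CPM in ARE-/-, 110 to 402 CPM in ARE+/- and 26.5 to 45.7 CPM in WT uteri, and macrophage markers to 1442 to 2663 CPM in ARE-/-, 1111 to 1487 CPM in ARE+/- and 502 to 695 CPM in WT uteri. Their part in the Ptgs2 values was not tested. Without ARE-/- replicate 1, the library with ovary transcripts, still 0 of the 9 genes were called in ARE-/- against WT uteri (4.38% of all genes). At an unadjusted p under 0.05 there was then 1, Ptgs2, and no longer Runx1. The share of all genes at that unadjusted threshold is not given for this fit.

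Runx1 was at 46.9, 34.2 and 41 CPM in ARE-/- uteri, against 36, 27.9 and 32.2 CPM in ARE+/- uteri and 26.3, 9.42 and 26.8 CPM in WT uteri. Both altered genotypes lay above WT, with WT replicate 2 the lowest. The difference of 0.96 ± 0.35 in ARE-/- uteri was not called (edgeR adjusted p = 0.17), nor was that of 0.61 ± 0.35 in ARE+/- uteri (adjusted p = 0.49). T cell markers, of a lineage that uses Runx1, summed to 76.7 to 97.3 CPM in ARE-/-, 24.3 to 32.4 CPM in ARE+/- and 9.23 to 9.72 CPM in WT uteri, and their part was not tested.

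Adamts1 was at 44.8, 229 and 39.8 CPM in ARE-/- uteri, against 111, 106 and 49.6 CPM in ARE+/- uteri and 328, 193 and 318 CPM in WT uteri. ARE-/- replicate 2 stood within the WT range and the other 2 ARE-/- uteri far below it. The ARE-/- difference was -1.43 ± 0.64 (adjusted p = 0.26), and without ARE-/- replicate 2 it was -2.72 and called (adjusted p = 0.012). ARE+/- uteri lay below all WT uteri (-1.65 ± 0.65, adjusted p = 0.29).

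Has2 was also high in ARE-/- replicate 2. It was at 7.62, 19.8 and 1.73 CPM in ARE-/- uteri, against 13.9, 9.59 and 0.176 CPM in ARE+/- uteri and 21.8, 15.4 and 20.5 CPM in WT uteri. Replicate 3 of both altered genotypes had the least Has2 and the most Ptgs2 of its group. The differences from WT were -0.98 ± 1.11 in ARE-/- (adjusted p = 0.68) and -1.28 ± 1.12 in ARE+/- uteri (adjusted p = 0.68). The antisense gene Has2os had 696 counts in the 9 uteri, against 4445 for Has2.

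Tnfaip6 was at 1.8, 10.2 and 7.55 CPM in ARE-/- uteri, against 6.73, 6.14 and 6.09 CPM in ARE+/- uteri and 9.69, 9.4 and 8.73 CPM in WT uteri. ARE+/- uteri lay below all WT uteri, while ARE-/- uteri overlapped them, and neither difference was called (-0.52 ± 0.48, adjusted p = 0.6, in ARE-/-; -0.56 ± 0.48, adjusted p = 0.67, in ARE+/-). Ptx3 was at 0.731, 2.62 and 0.448 CPM in ARE-/- uteri, against 1.89, 0.962 and 0.41 CPM in ARE+/- uteri and 0.955, 3.42 and 1.21 CPM in WT uteri, with overlapping groups (-0.55 ± 0.79 in ARE-/-, adjusted p = 0.75).

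The ligands were low and uneven in the uterus. Areg was at 1.27, 0.103 and 0.352 CPM in ARE-/- uteri, against 0.397, 0.16 and 0.293 CPM in ARE+/- uteri and 0.168, 3.04 and 0 CPM in WT uteri, so that WT held both the highest value and the only library without a count (-0.86 ± 1.43 in ARE-/-, adjusted p = 0.79). Btc was at 3.37, 1.9 and 2.24 CPM in ARE-/-, 2.54, 1.76 and 4.54 CPM in ARE+/- and 2.53, 0.453 and 2.37 CPM in WT uteri (0.50 ± 0.62 in ARE-/-, adjusted p = 0.71). Ereg had 84, 0 and 0 counts in ARE-/- uteri, 6, 0 and 4 in ARE+/- uteri and 0 in each WT uterus. The 84 counts lie in ARE-/- replicate 1, the uterus library that carries ovary transcripts; without it Ereg had 10 counts over 8 uteri. Edn2 was at 1.52, 0.103 and 1.28 CPM in ARE-/-, 0, 0.748 and 1.49 CPM in ARE+/- and 0.73, 0.0453 and 0.493 CPM in WT uteri (1.20 ± 1.40 in ARE-/-, adjusted p = 0.69). ARE-/- replicate 1 also held the most Areg, Btc and Edn2 of the ARE-/- uteri.

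In ARE+/- uteri 0 of the 9 genes tested were called, against 1.14% of all genes. At an unadjusted p under 0.05 there were 2, Ptgs2 and Adamts1 (14.1% of all genes), and DESeq2 called 1, Ptgs2 (4.95% of all). The groups did not overlap for 5 genes, against 28.5% of all genes: Ptgs2 and Runx1 were above WT, and Adamts1, Tnfaip6 and Has2 below.

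Of the 71 genes tested from the 7 pathway lists in the uterus, 3 were called in ARE-/- against WT, all higher, a share of 4.23% beside 3.75% of all genes. Cebpa, a transcription factor of granulosa cells and of fat cells, was at 375, 142 and 123 CPM in ARE-/- uteri 1, 2 and 3 and 45.4 ± 7.37 CPM in WT uteri (2.25 ± 0.40, edgeR adjusted p = 0.016; 1.52 and 0.0011 without ARE-/- replicate 1). Pparg, a fat cell regulator on the list of progesterone receptor targets, was at 55.5, 14.1 and 9.6 CPM in ARE-/- uteri and 2.57 ± 0.402 CPM in WT uteri (3.39 ± 0.62, adjusted p = 0.017; 2.18 and 0.003 without ARE-/- replicate 1). ARE-/- replicate 1 held the most of both genes, and all ARE-/- uteri lay above all WT uteri. Cxcr4, a chemokine receptor on the same list, was at 20.6 ± 10.3 CPM in ARE-/- and 6.62 ± 0.122 CPM in WT uteri (1.63 ± 0.31, adjusted p = 0.022). Without ARE-/- replicate 1 the Cxcr4 difference was 1.89 (adjusted p = 0.003). Each of the 3 lost its call without WT replicate 1 or WT replicate 3 (adjusted p 0.094 to 0.12) and with only these 2 groups in the fit (0.057 to 0.086). Without ARE-/- replicate 2 there were 7 calls, 3 higher and 4 lower (9.72% of the list genes tested, beside 5.24% of all genes). The LH receptor and transcription factor list thus had 1 higher of 12 tested (median 0.23) and the progesterone receptor targets 2 of 6 (median 0.42). The other 5 lists had none called, with medians from -0.22 for the endothelin genes to 0.07 for the proteases, against 0.04 over all genes. Fat cell markers summed to 5835, 882 and 461 CPM in ARE-/- uteri 1, 2 and 3 and to 17.5 to 26.5 CPM in WT uteri, and their part in Cebpa and Pparg was not tested. All 10 interferon gamma response genes rose in ARE-/- uteri, among them Cxcl9 (5.79 ± 0.38), Cd274, the checkpoint ligand PD-L1 (3.46 ± 0.26), and Iigp1, an immunity-related GTPase (4.27 ± 0.36). In ARE+/- against WT uteri 1 of the 71 genes was called, a share of 1.41% beside 1.14% of all genes. It was Cxcr4, at 24.9 ± 2.13 CPM in ARE+/- and 6.62 ± 0.122 CPM in WT uteri (1.91 ± 0.32, adjusted p = 0.026). The call was lost without any of 5 libraries (the 3 ARE+/- uteri and WT replicates 1 and 3, 0.07 to 0.16). Without ARE-/- replicate 1 there were 5 calls, 4 higher and 1 lower (6.94% of the list genes tested, beside 2.91% of all genes). All 10 interferon gamma response genes rose in ARE+/- uteri as well (median 2.48), though 0 were called without WT replicate 1 or WT replicate 3.

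Whether the ARE-/- effect differed between ovary and uterus was asked with an interaction term in a fit of the 18 libraries. None of the 10 genes was called, against 0.169% of 26682 genes. At an unadjusted p under 0.05 there were 4 genes, Ptgs2, Ereg, Runx1 and Edn2 (14.1% of all genes). Without uterus ARE-/- replicate 1 there were 2, Ptgs2 and Runx1, and the share of all genes is not given for that fit. The ovary effect minus the uterus effect was -2.71 ± 1.26 for Ptgs2 (edgeR adjusted p = 0.35), -1.29 ± 0.41 for Runx1 (adjusted p = 0.19) and -4.24 ± 1.74 for Edn2 (adjusted p = 0.3). Ereg gave adjusted p = 0.21, and its fitted size has no meaning here because all WT uteri were at 0. DESeq2 called 1 gene, Ereg, whose uterus counts lie almost wholly in ARE-/- replicate 1; without that library edgeR gave -0.13 (adjusted p = 1). Over all genes DESeq2 also called more than edgeR for this interaction, with counts in the last section. For Adamts1 the ovary effect minus the uterus effect was 1.55 ± 0.76 (adjusted p = 0.38), and it was called without uterus ARE-/- replicate 2 (2.86, adjusted p = 0.017). Has2 gave 2.04 ± 1.47 (adjusted p = 0.57), and the remaining 4 genes lay between -0.21 and 1.20.

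WT ovaries and WT uteri were then compared to place the levels of the genes in each tissue. Of the 10 genes 6 were called, 3 higher and 3 lower in the ovary, against 25.2% of all genes (13.3% higher and 11.9% lower). Groups did not overlap for 5 genes, against 45.9% of all. Ereg was at 1.22 ± 0.415 CPM in WT ovaries and had 150 counts, against 0 in WT uteri, which makes it at least 24.4-fold higher (edgeR adjusted p = 0.013). The floor was 3 fragments over the WT uterus group, or 6 counts with both mates counted (0.0499 CPM), and covers counting error only. Runx1 was at 43.9 ± 2.66 CPM in WT ovaries and 20.8 ± 9.9 CPM in WT uteri (1.06 ± 0.29, adjusted p = 0.015). Edn2 was at 8.71 ± 7.01 CPM in WT ovaries and 0.423 ± 0.348 CPM in WT uteri (4.35 ± 1.33, adjusted p = 0.026), but WT ovary replicate 2 lay inside the uterus range. The Edn2 call ended without WT ovary 1 or 3 or any 1 of the 3 WT uteri (adjusted p 0.055 to 0.08).

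Has2, Tnfaip6 and Adamts1 were lower in the ovary. Has2 was at 0.396 ± 0.193 CPM in WT ovaries and 19.2 ± 3.39 CPM in WT uteri (-5.60 ± 1.21, adjusted p = 0.0032). Tnfaip6 was at 1.98 ± 1.3 CPM in WT ovaries and 9.27 ± 0.489 CPM in WT uteri (-2.24 ± 0.59, adjusted p = 0.011). Adamts1 was at 60.8 ± 13.4 CPM in WT ovaries and 279 ± 75.4 CPM in WT uteri (-2.22 ± 0.56, adjusted p = 0.009). Areg (0.55 ± 1.05, adjusted p = 0.76), Ptgs2 (0.89 ± 0.91, 0.53), Btc (-0.20 ± 0.53, 0.84) and Ptx3 (-0.02 ± 0.63, 0.98) were not called. Areg was called higher in the ovary once WT uterus replicate 2, its highest library, was left out (4.19, adjusted p = 0.0085).

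**Figure D3:**
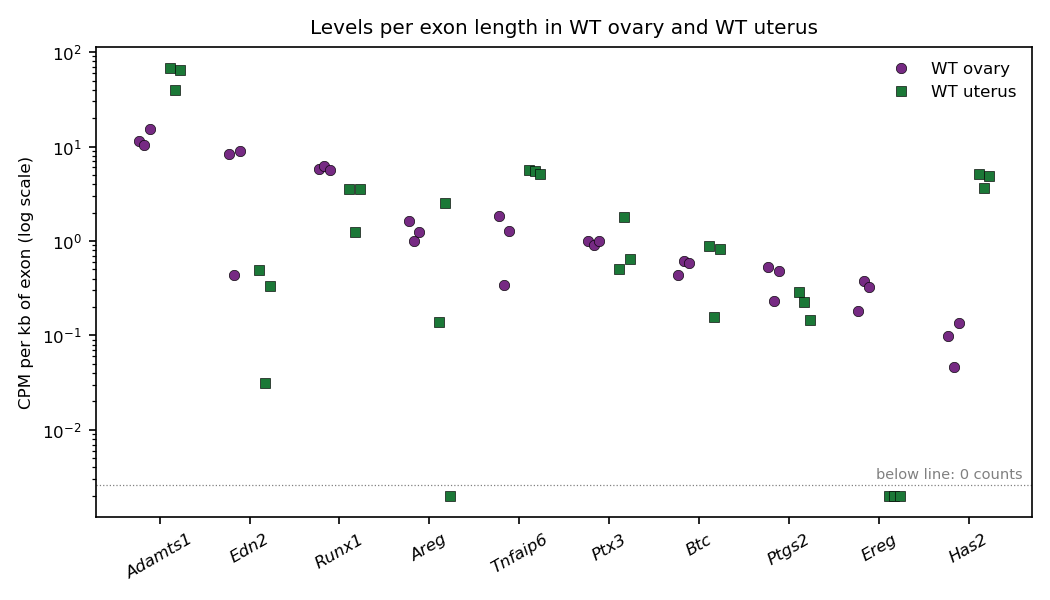
Level of each ovulatory gene per kilobase of exon in WT ovaries and WT uteri, on a log axis; points are single libraries, and those under the dotted line had 0 counts. On average Adamts1 leads in both tissues, at 12.4 CPM per kb in the ovary and 57.2 in the uterus, while Ereg has no count in any WT uterus.

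Per kilobase of exon, which allows genes to be compared, the WT ovary level was 12.4 ± 2.74 CPM per kb for Adamts1. Edn2 (5.96 ± 4.8) and Runx1 (5.89 ± 0.357) followed, and did not differ beyond the spread of Edn2. Areg (1.29), Tnfaip6 (1.16) and Ptx3 (0.969) formed the next level and lay within their spreads, followed by Btc (0.546), Ptgs2 (0.411) and Ereg (0.294). Has2 was the least abundant, at 0.0935 ± 0.0454 CPM per kb. In the ARE-/- ovary Edn2 stood at 0.711 ± 0.0808 CPM per kb, below Areg (1.61 ± 0.189) in all 3 libraries. Tnfaip6 (1.02 ± 0.553), Ptgs2 (0.949 ± 0.715) and Ptx3 (0.854 ± 0.302) had higher means than Edn2 there, but did not differ from it beyond their spread. Has2 had the lowest mean (0.195 ± 0.148), within its spread of Ereg (0.269 ± 0.0352).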

How the data were processed

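Total RNA of mouse ovary and uterus was sequenced with paired ends, per the labels' protocols. The authors deposited whole-number counts per gene, made with featureCounts 2.0.4 on GENCODE M32 with multi-mapping and multi-overlapping reads counted, mates counted singly and no strand option, per the file headers. STAR, DESeq2 and mm10 are named in the submitters' processing notes. The authors also deposited adjusted p-values of a likelihood-ratio test, which were only read for the 10 genes. Members and gene lists were chosen with earlier results of these data known.

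Gene counts entered the robust quasi-likelihood F-test of edgeR 4.0.16 (R 4.3.3) after filterByExpr and TMM scaling, over 9 libraries per tissue or all 18 for tissue comparisons, with Benjamini-Hochberg adjustment over all genes tested and a threshold of 0.05. The spread of the 3 genotypes was shared; the common biological coefficient of variation was 0.281 in the ovary and 0.411 in the uterus. A standard error is the size of the log2 fold change over the root of F. The scripts were tested on simulated data with known changes. Symbols were given for 52029 of 57010 gene IDs (91.3%), by GENCODE ID. Replicates were compared by chi-square over genes (at least 15.17 per degree of freedom), and none duplicated another. Named genes are all 10 members, Ifng, and up to 4 called genes per pathway list and direction; 1 gene that this rule names is not reported here. Alternatives were another scaling, no filter, at least 1 CPM in 3 libraries, DESeq2 1.42.0, no robust dispersion, counts halved, a replicate block, only the 2 groups compared, and each library left out in turn.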

Additional observations from a re-analysis of the deposited data

How the results depend on the processing

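Of the ovulatory genes called per comparison, DESeq2 gave 1 in ARE-/- ovaries against WT (Edn2) and 1 in ARE-/- uteri against WT (Ptgs2). It gave 1 in ARE+/- uteri against WT (Ptgs2) and 1 for the tissue difference (Ereg), where edgeR gave 0 in each. Over all genes DESeq2 called 14.4% in ARE-/- ovaries, 8.39% in ARE-/- uteri and 4.95% in ARE+/- uteri, against 10.5%, 3.75% and 1.14% in edgeR. For the tissue difference DESeq2 also called more of all genes than edgeR, with both counts given below. Fitting only the 2 groups gave 1 in ARE+/- uteri (Ptgs2), beside 3.99% of all genes. With single libraries left out the number called was 0 to 1 in ARE-/- ovaries, 0 to 2 in ARE-/- uteri, 0 to 1 in ARE+/- uteri, 0 to 1 for the tissue difference and 5 to 6 for WT ovary against WT uterus. Over all genes those fits called 785 to 3262, 192 to 1322, 0 to 733, 3 to 377 and 4838 to 8552 genes, in that order. The cause was not tested. Edn2 in WT ovary against WT uterus was also lost with no filter on low counts (4.37, adjusted p = 0.062).

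The same replicate number does not mark a shared animal in the labels, and same-numbered libraries deviated together in 0 of 5 ovary pairs and 5 of 9 uterus pairs (correlation over 0.1). Among pairs with different numbers it was 6 of 22 in the ovary and 1 of 18 in the uterus. With replicate number as a block no ovulatory gene changed its call. In the ovary no other library has the number of ARE-/- replicate 6 or ARE+/- replicate 4, so both drop out of the block comparisons. Few libraries then remain to judge the spread, so the unchanged ovary calls do not test pairing. In the ovary values below, an effect of the block cannot be told apart from the loss of these libraries. Of the 7 pathway lists 10 genes were called in ARE-/- against WT ovaries with the block, 6 higher and 4 lower. That was 13.7% of the list genes tested, beside 6.31% of all genes, against 7 called without the block. Nrip1 (-0.37, adjusted p = 0.22), Adam10 (0.21), Adamts9 (0.067) and Mmp19 (0.058) were not among the 10, and 4 of 8 luteal markers were lower. Pla2g4a was not called in ARE+/- ovaries with the block (0.14). With only the 2 groups fitted 3 of the list genes were called in ARE-/- ovaries (4.11% of those tested, beside 7.43% of all genes). In ARE-/- uteri 0 were called (1.61% of all genes), and in ARE+/- uteri 6 (8.57% beside 3.99%). DESeq2 called 12 in ARE-/- ovaries (15.2% beside 14.4%), 7 in ARE-/- uteri (8.86% beside 8.39%) and 3 in ARE+/- uteri (3.8% beside 4.95%). Under the block, uncalled values changed sign for Areg in ARE+/- against WT ovaries (-0.10), Btc (0.30) and Has2 (0.59) in ARE-/- against ARE+/- ovaries, Btc in the tissue difference (0.06) and Ptx3 in WT ovary against WT uterus (0.12).

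Left-out libraries turned the sign of these uncalled values, given as lowest and highest log2 fold change. In ARE-/- against WT ovaries these were Ereg (-0.38 to 0.09), Adamts1 (-0.17 to 0.36), Ptx3 (-0.50 to 0.00) and Tnfaip6 (-0.62 to 0.33). In ARE+/- against WT ovaries these were Ptgs2 (-0.53 to 0.17), Areg (-0.10 to 0.25), Adamts1 (-0.25 to 0.06), Ptx3 (-0.04 to 0.29) and Tnfaip6 (-0.63 to 0.31). In ARE-/- against ARE+/- ovaries these were Btc (-0.23 to 0.27), Adamts1 (-0.04 to 0.49), Tnfaip6 (-0.37 to 0.39), Has2 (-0.83 to 0.33) and Runx1 (-0.34 to 0.01). In ARE-/- against WT uteri these were Areg (-2.25 to 2.77) and Ptx3 (-1.63 to 0.21), and in ARE+/- against WT uteri Areg (-2.47 to 1.74), Ptx3 (-1.43 to 0.00) and Edn2 (-0.20 to 1.43). For the tissue difference these were Areg (-2.44 to 2.60), Btc (-0.54 to 0.26), Ptx3 (-0.39 to 1.47) and Tnfaip6 (-0.09 to 0.86), and for WT ovary against WT uterus Areg (-0.03 to 4.19), Btc (-0.66 to 0.14) and Ptx3 (-0.33 to 0.74).

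Counts over all genes moved by more than 1.5 times as follows. ARE-/- against WT ovaries had 2558 (DESeq2 3904, replicate block 1544, single libraries left out 785 to 3262), and ARE+/- against WT ovaries 417 (DESeq2 1338, block 59, only the 2 groups 701, left out 75 to 727). ARE-/- against ARE+/- ovaries had 12 (no filter 38, DESeq2 197, halved counts 6, left out 0 to 14, and 0 at 1 CPM or more, without robust dispersion, with the block or with only the 2 groups). ARE-/- against WT uteri had 911 (DESeq2 2276, only the 2 groups 374, left out 192 to 1322), and ARE+/- against WT uteri 276 (no filter 415, DESeq2 1305, only the 2 groups 922, left out 0 to 733). The tissue difference had 45 (DESeq2 789, left out 3 to 377). Some uterus libraries held only 0 to 6 counts of Ereg, Areg or Edn2, and ARE+/- replicate 3 held 6 of Has2, so these values rest on few reads.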
